A study of Homo sapiens with 20 samples.

Results

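The genes described here are the sterol and fatty acid synthesis genes, 33 in all, chosen by name as enzymes, carriers and regulators of cholesterol and fatty acid synthesis. Of these, 31 were measured, among 18417 genes tested on the array. FDFT1, squalene synthase, was not listed in the probe annotation used, and HSD17B7, a ketosteroid reductase of the sterol ring steps, had only a probe cluster shared with other symbols, so neither has a value here. A gene with several probe clusters was represented by the brightest one.

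All 20 arrays came from LNCaP, an established human prostate cancer line that depends on androgen. There were 7 groups, with 3 arrays each except early S with 2. The 5 arrest groups were grown in hormone-proficient medium, and each was named for the cell cycle stage at which the labels place it. Early G1 cells received 0.5 µM PD-0332991, a CDK4/6 inhibitor, for 24 h. Late G1 cells received 5 µg/mL roscovitine, a CDK inhibitor, for 24 h. Early S cells received 2 µg/mL aphidicolin, a DNA polymerase inhibitor, for 24 h. Late S cells received 1 mM hydroxyurea, a ribonucleotide reductase inhibitor, for 24 h. G2/M cells received 2 µg/mL aphidicolin for 15 h and, once it was washed out, 50 ng/mL nocodazole, a microtubule poison, for 9 h. Every arrest group also received 10 nM of the androgen DHT (dihydrotestosterone) for the last 3 h. The CDT + DHT group spent 72 h in a medium labelled CDT and received the same DHT treatment, and the CDT group spent 72 h in CDT with ethanol for the last 3 h.

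No arrested cells without DHT and no cycling cells in hormone-proficient medium were among the arrays. An arrest against CDT + DHT therefore differed in medium and drug together, and an arrest against CDT differed in medium, drug and DHT, and these cannot be told apart. Each stage was reached with 1 treatment, so stage and drug cannot be told apart either. Nothing in the labels tells whether the replicate arrays came from separate cultures, and p-values therefore cover the spread between arrays only. In whole-population RNA, fewer expressing cells and less RNA per cell cannot be told apart.

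Cholesterol is built from acetyl-CoA through mevalonate, isoprenoid diphosphates and squalene, after which a series of enzymes remodels the sterol ring. Fatty acids are built from the same acetyl-CoA by acetyl-CoA carboxylase and fatty acid synthase, then desaturated and elongated. Many of these genes share transcriptional control by the sterol regulatory element-binding proteins (SREBPs), which are held in the endoplasmic reticulum by INSIG proteins when sterols are plentiful. In prostate cancer cells, androgen is known to raise SREBP activity and the expression of several of these enzymes.

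The array values were intensities on a linear scale and were analysed as log2(intensity + 1), and every level and difference below is on that scale. Array medians of the intensity lay between 5.44 and 9.08, so a level near 0 is close to the added 1. Of the 8 prostate luminal markers listed, 5 had a value: KLK3 lay between 6.52 and 10.85, KLK2 between 5.66 and 9.29, HOXB13 between 4.76 and 7.95, KRT8 between 4.87 and 6.91 and KRT18 between 4.63 and 7.41. Markers of basal epithelium (KRT5, KRT14), leukocytes (PTPRC, CD3E, CD14), stroma (COL1A1, COL1A2, DCN), hepatocytes (ALB) and adipocytes (PLIN1, ADIPOQ, LEP) had medians from 2.11 (DCN) to 4.67 (PLIN1). Their single values ran from 0.01 (PTPRC) to 5.52 (COL1A2), so the highest of them overlapped with the lowest values of HOXB13, KRT8 and KRT18, and levels of different genes are not on a common scale. Pairs of arrays correlated at 0.58 to 0.94 within a group (median 0.83) and at 0.46 to 0.91 between groups (median 0.77). A single axis, the leading principal component of array deviations from their group mean over 9181 genes other than the members, carried 43.7% of the variance within groups. Groups had mean positions on it of -0.37 (early G1), -0.04 (late G1), -0.66 (early S), 0.45 (late S), -0.49 (G2/M), 0.65 (CDT + DHT) and 0.24 (CDT). Within groups the members ran against this axis, with a median correlation of -0.72 over the 20 arrays and 19 of 31 members below -0.5. The share of all genes below -0.5 was not computed, so this is not shown to be particular to the members. The mean level of all genes was also the lowest of its group on late S 1 (3.13), CDT + DHT 3 (3.11) and early G1 2 (3.28). On CDT 1 it was 3.51, beside 3.76 on CDT 2 and 3.48 on CDT 3. The 3 members MVK, EBP and FASN had correlations above 0. The part of this axis in the differences below was not tested. Values without the 4 arrays highest on it (late S 1, early G1 2, CDT + DHT 3 and CDT 1) are given for ELOVL7, FADS2 and some of the members' medians and counts. For the other genes they are not given.

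**Figure D1:**
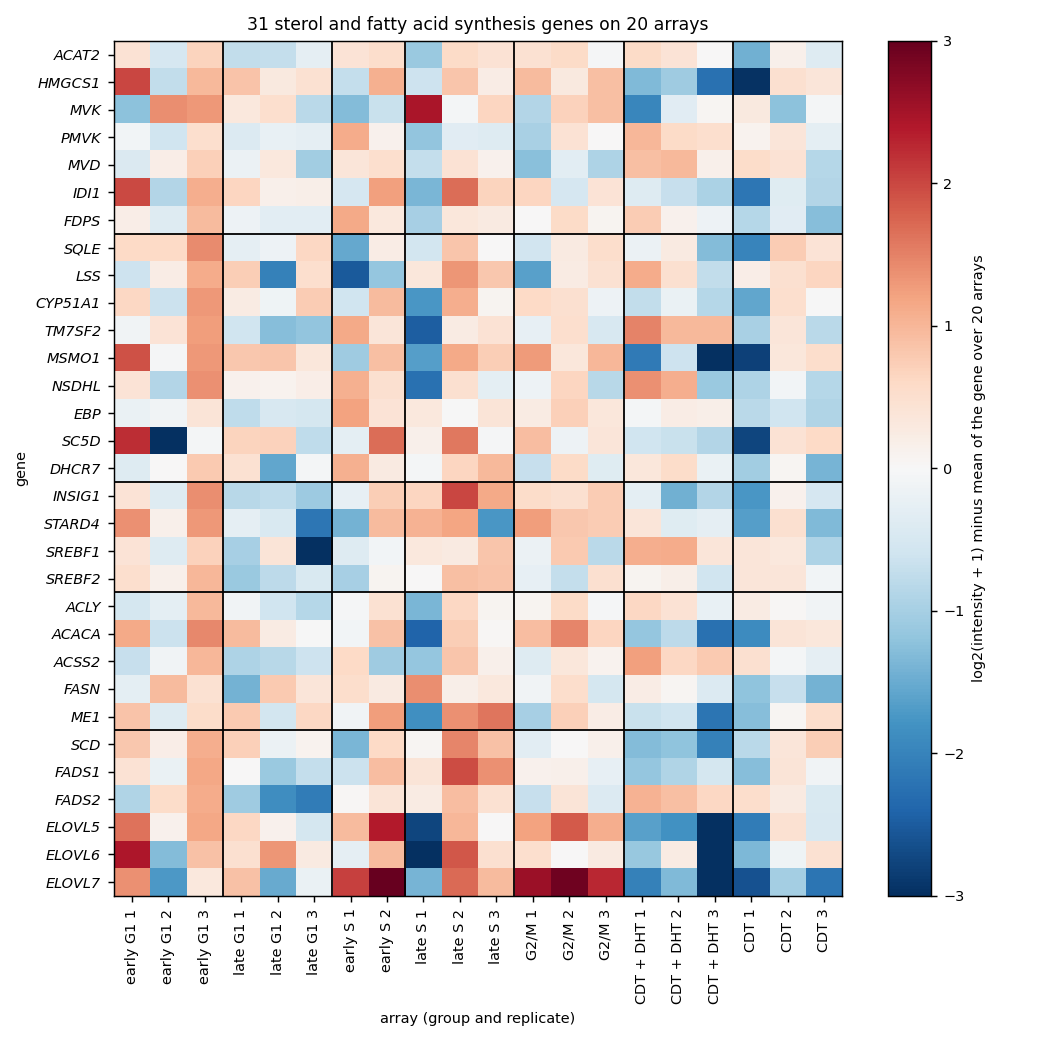
Level of each of the 31 measured genes on each of the 20 arrays, as the difference from the gene's mean over all arrays on the log2(intensity + 1) scale, with colour clipped at 3 in either direction. Genes run down the page by role and arrays run left to right by group. The CDT + DHT arrays are low for ELOVL5, MSMO1 and HMGCS1 and high for FADS2, TM7SF2 and ACSS2.

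Of the 31 genes, ELOVL7 and FADS2 were the members that passed the test in at least 1 comparison, with limma over all genes and a Benjamini-Hochberg adjusted p under 0.05. ELOVL7, an elongase of long saturated fatty acids, rose in the 5 arrests against the mean of both CDT-medium groups and in G2/M against CDT + DHT. FADS2, the desaturase that starts polyunsaturated fatty acid synthesis, fell in late G1 against CDT + DHT and against the mean of the other arrests. With this fit no enzyme of cholesterol synthesis passed in any comparison, and with array weights up to 8 members passed, in late S against CDT + DHT, where 9.64% of all genes then passed. The median of the 31 differences from CDT was above 0 in each arrest, between 0.33 in late G1 and 0.82 in early G1, and the median over all genes lay between -0.15 and 0.07. Without the 4 arrays highest on the axis late G1 turned to -0.09, and early S and G2/M dropped to 0.25 each.

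The counts for each comparison were as follows. In CDT + DHT against CDT, limma passed 0 of 31 members, where it passed 0% of all genes, and 4 members had an unadjusted p under 0.05, as did 6.86% of all genes. Against CDT it passed 0 members in any arrest, where the share of all genes that passed was 0.00543% (early G1), 0.103% (late G1), 0.0326% (early S), 0.0977% (late S) and 0.109% (G2/M). An unadjusted limma p under 0.05 was reached by 5 members for early G1 (5.11% of all genes), 1 for late G1 (9.06%), 7 for early S (5.57%), 6 for late S (5.94%) and 5 for G2/M (7.05%). Late G1 was thus below the share of all genes. Against CDT + DHT it passed 0 members in early G1, where it passed 0% of all genes, and 8 members had an unadjusted p under 0.05, as did 8.07% of all genes. It passed 1 member, FADS2, in late G1 (0.516% of all genes) and 1, ELOVL7, in G2/M (0.44% of all genes). It passed 0 members in early S (0.00543% of all genes) and 0 in late S (0.0706% of all genes). Unadjusted, 3 members reached a p under 0.05 in early S (7.62% of all genes), 8 in late S (10.2%), 10 in late G1 (14%) and 8 in G2/M (15.1%).

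Against the mean of the other arrests, limma passed FADS2 alone in late G1, where 0.706% of all genes passed. It passed 0 members in early G1 (0% of all genes), early S (0%), late S (0.0271%) and G2/M (0.0271%). Unadjusted, a p under 0.05 was reached by 0 members for early G1 (2.47% of all genes), 9 for late G1 (10.5%), 2 for early S (3.88%), 5 for late S (6.92%) and 1 for G2/M (5.00%). In the 5 arrests against both CDT-medium groups it passed 1 member, ELOVL7, against 0.592% of all genes, and 10 members had an unadjusted p under 0.05, against 13.2% of all genes. The moderated F test among the 5 arrests passed 0 members, against 0.255% of all genes, with 4 members at an unadjusted p under 0.05 (6.89% of all genes) and the lowest adjusted p at 0.338, for FADS2. The comparisons with CDT share the CDT arrays, and those with CDT + DHT share the CDT + DHT arrays, so their values stand side by side and are not independent.

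A second description counted members whose arrays all lay above, or all below, those of the other group. Those above are given first. In CDT + DHT against CDT these were 7 of 31 (ACSS2, EBP, FADS2, FASN, FDPS, PMVK and TM7SF2), where 7.81% of all genes did so. Against CDT, early G1 had 2 such members (3.21% of all genes), late G1 had 3 (5.52%), early S had 9 (11%), late S had 4 (4.01%) and G2/M had 8 (6.64%). Against CDT + DHT, early G1 had 8 (7.16%), late G1 had 9 (10.8%), early S had 9 (15.3%), late S had 5 (6.29%) and G2/M had 12 (15.1%). In the arrests against both CDT-medium groups no member did so, and 0.0652% of all genes did. Those below were 1 in CDT + DHT against CDT, SCD (5.95% of all genes). Against CDT, early G1 had 0 members below (7.07%), late G1 had 3 (10.1%), early S had 1 (11%), late S had 1 (5.18%) and G2/M had 0 (7.55%). Against CDT + DHT, early G1 had 0 (8.71%), late G1 had 6 (14%), early S had 4 (13.2%), late S had 2 (8.81%) and G2/M had 5 (11.8%). In the arrests against both CDT-medium groups 0 members lay below (0.147%). The members' share lying above exceeded that of all genes in every comparison but the last, while the share lying below was near or under that of all genes in most and over it in late G1 and G2/M against CDT + DHT. No test was made of this, since members correlated with each other within groups (median r 0.37 over 465 pairs and 20 arrays). The shares are also not like for like. The members were brighter, with a mean level of 4.94 over the 20 arrays, against 3.53 for all genes. They were also chosen with earlier results of these data known.

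**Figure D2:**
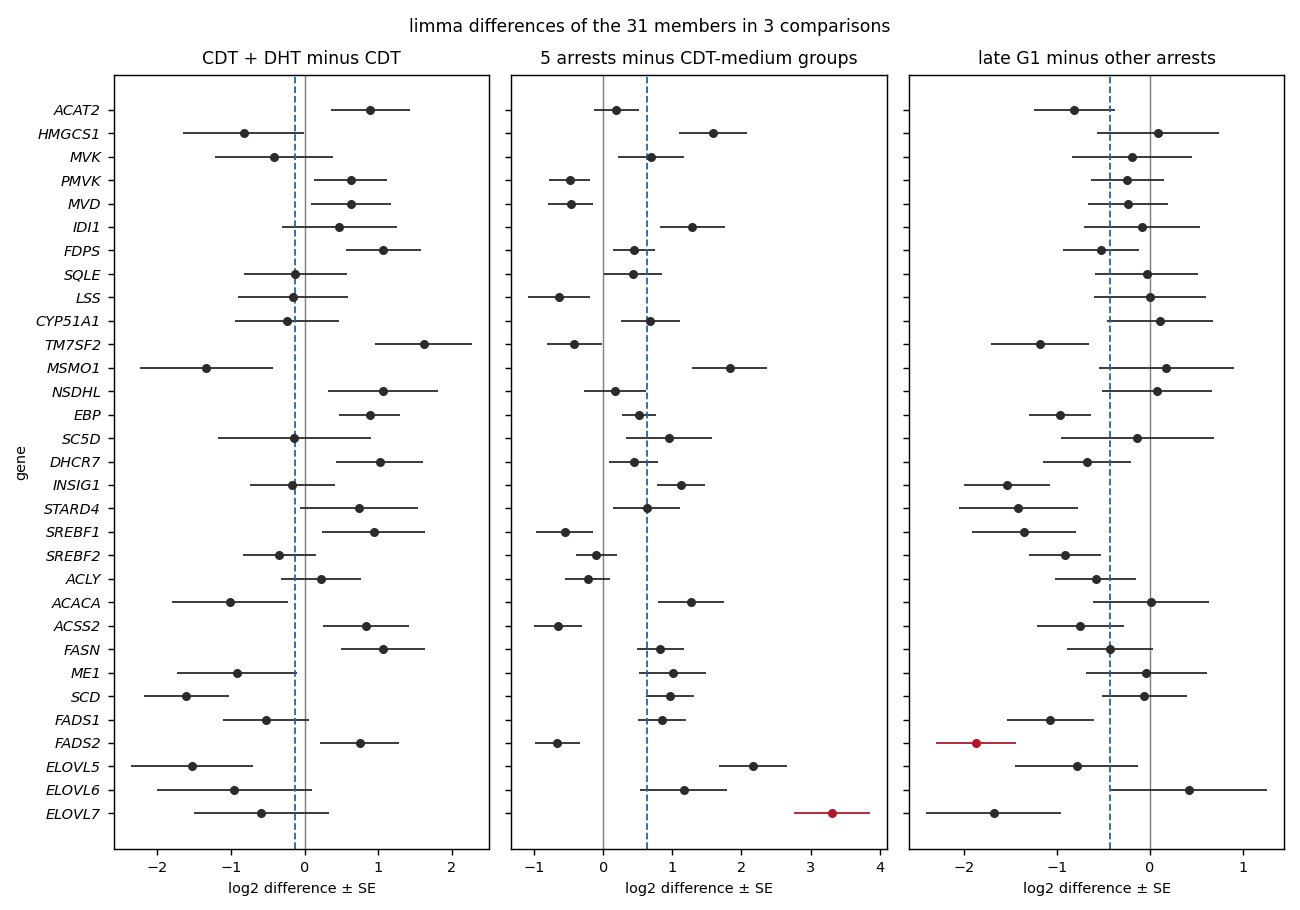
Difference of each of the 31 genes with its standard error, on the log2(intensity + 1) scale from the limma fit, for CDT + DHT minus CDT, the 5 arrests minus both CDT-medium groups and late G1 minus the other arrests. Red points have an adjusted p under 0.05 and the dashed line is the median of the 31 genes. The red points are ELOVL7 at 3.31 in the arrests and FADS2 at -1.87 in late G1.

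The stretch of 250 bases before the annotated start was read for members in RefSeq's promoter table for GRCh38.p14, which held 38 windows of 28 members. The windows of 6 members are shown: ELOVL7 and FADS2, which passed the test, INSIG1, a feedback regulator, HMGCS1 and MSMO1, whose group means were the most alike of any pair of members, and SREBF2, which held the single sterol element found. Capitals mark the sterol regulatory element TCACNCCAC, the CCAAT box CCAAT and the E-box CACGTG on either strand, so that CCAAT reads ATTGG on the other strand. Where no capital stands, none of these letters was in the window. FADS2 and HMGCS1 had 2 windows each, and the first listed is shown.
ELOVL7: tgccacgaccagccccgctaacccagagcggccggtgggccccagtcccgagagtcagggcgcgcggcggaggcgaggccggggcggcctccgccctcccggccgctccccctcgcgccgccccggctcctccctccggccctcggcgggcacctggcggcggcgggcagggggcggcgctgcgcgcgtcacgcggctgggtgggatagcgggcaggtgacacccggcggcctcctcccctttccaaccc
FADS2: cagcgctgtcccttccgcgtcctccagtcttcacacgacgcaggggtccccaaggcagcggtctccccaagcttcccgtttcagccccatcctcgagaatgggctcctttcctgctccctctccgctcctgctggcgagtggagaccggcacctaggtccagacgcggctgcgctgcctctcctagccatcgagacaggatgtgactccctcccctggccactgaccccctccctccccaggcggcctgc
INSIG1: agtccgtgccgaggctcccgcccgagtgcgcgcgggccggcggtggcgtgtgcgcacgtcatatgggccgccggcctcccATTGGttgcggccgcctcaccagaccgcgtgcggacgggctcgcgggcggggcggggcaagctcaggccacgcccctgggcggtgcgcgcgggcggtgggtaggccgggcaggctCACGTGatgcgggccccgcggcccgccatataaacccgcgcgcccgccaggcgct
HMGCS1: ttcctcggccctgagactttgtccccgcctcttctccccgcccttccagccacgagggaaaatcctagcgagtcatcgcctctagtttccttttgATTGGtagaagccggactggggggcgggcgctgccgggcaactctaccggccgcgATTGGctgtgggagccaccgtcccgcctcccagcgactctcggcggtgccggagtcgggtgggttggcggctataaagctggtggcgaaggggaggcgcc
MSMO1: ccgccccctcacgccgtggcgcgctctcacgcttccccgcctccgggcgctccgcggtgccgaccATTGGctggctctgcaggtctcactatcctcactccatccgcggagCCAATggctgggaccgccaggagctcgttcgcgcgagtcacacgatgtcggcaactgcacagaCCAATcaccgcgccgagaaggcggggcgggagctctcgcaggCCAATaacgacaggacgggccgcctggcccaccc
SREBF2: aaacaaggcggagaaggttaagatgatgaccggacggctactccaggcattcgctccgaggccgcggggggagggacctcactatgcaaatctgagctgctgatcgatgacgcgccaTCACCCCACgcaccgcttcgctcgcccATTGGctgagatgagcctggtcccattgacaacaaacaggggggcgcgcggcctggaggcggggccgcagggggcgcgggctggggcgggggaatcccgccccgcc

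The windows lie at chr5:60844270-60844519 for ELOVL7 and chr5:43313413-43313662 for HMGCS1, both on the minus strand, and at chr11:61815953-61816202 for FADS2, chr7:155297628-155297877 for INSIG1, chr4:165327419-165327668 for MSMO1 and chr22:41832855-41833104 for SREBF2, all on the plus strand. All are printed 5′ to 3′ on the gene's strand. A CCAAT box stood in 24 of the 38 members' windows (63.2%), against 32.0% of all 35116 windows. The GC box GGGCGG stood in 33 (86.8%), against 42.6% of all windows. The E-box stood in 4 (10.5%), against 6.34%, and the sterol element in 1 (2.63%), against 0.883%. The androgen receptor hexamer AGAACA stood in 1 window, that of PMVK (2.63%), against 12.4% of all windows. In the windows shown, MSMO1 held 4 CCAAT boxes and HMGCS1 held 2, while ELOVL7 and FADS2 held none. A match is a run of letters and not a shown binding site.

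Among the 6 desaturases and elongases, ELOVL7 carried the largest differences. It measured 5.61, 2.52 and 4.56 on the early G1 arrays, 5.13, 2.74 and 4.04 on those of late G1, 6.29 and 7.50 on the early S pair, 2.84, 5.93 and 5.18 on the late S arrays and 6.80, 7.16 and 6.50 on the G2/M ones. It measured 2.20, 2.92 and 0.01 in CDT + DHT and 1.63, 3.22 and 2.04 in CDT. All early S and G2/M arrays lay above every array in CDT medium, while 1 array each of early G1, late G1 and late S lay within the range of the CDT-medium arrays. The 5 arrests exceeded the 2 CDT-medium groups by 3.31 ± 0.55 (limma difference ± SE), with an adjusted p of 0.00563. The CDT-medium values lay within the range of the markers of other cell types given above, so no fold is given. This call held in each alternative tried and when any single array was left out, with an adjusted p of at most 0.0296 (without CDT 1). With 16 in place of 1 added to the intensity the difference was 1.65, since the low arrays are close to the added constant. Without the 4 arrays highest on the axis it was 3.07, with an adjusted p of 0.0180.

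In G2/M, ELOVL7 averaged 6.82 ± 0.33, against 1.71 ± 1.52 in CDT + DHT (SD, n = 3 each). The difference of 5.11 ± 0.91 had an adjusted p of 0.0301 (limma), and with 16 added it was 2.74, so its size is set in part by the added constant. Leaving out any 1 G2/M or CDT + DHT array gave an adjusted p between 0.0667 and 0.155, and without CDT + DHT 3, the array at 0.01, the difference was 4.25. It was also 4.25 without the 4 arrays highest on the axis, with an adjusted p of 0.0222 (limma). Against CDT the G2/M difference was 4.52 ± 0.91, with an adjusted p of 0.0567, and early S stood 4.60 ± 1.02 above CDT (adjusted p 0.210) and 5.19 ± 1.02 above CDT + DHT (adjusted p 0.195), with 2 arrays in early S.

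FADS2 measured 5.87, 7.33 and 7.90 on the early G1 arrays, 5.70, 4.92 and 4.67 on those of late G1, 6.82 and 7.16 on the early S pair, 7.02, 7.69 and 7.23 on the late S arrays and 6.08, 7.16 and 6.37 on the G2/M ones. It measured 7.82, 7.67 and 7.40 in CDT + DHT and 7.30, 7.05 and 6.31 in CDT. Each late G1 array lay below every other array of the study. Late G1 stood 2.53 ± 0.54 below CDT + DHT, a difference of -2.53 and a fold of 0.173, with an adjusted p of 0.0415. Set against the average of the other arrests, the difference was -1.87 ± 0.43, a fold of 0.273, with an adjusted p of 0.0484 (limma). Against CDT it was -1.79 ± 0.54, with an adjusted p of 0.256. Its correlation with the axis was -0.08, near 0. The call against the other arrests was close to the threshold and was lost in most omissions of a single array. The adjusted p (limma) stayed under 0.05 just without late S 1 (0.0340) and without early G1 1 (0.0196), and reached 0.253 without late G1 3. It was 0.0517 with quantile normalization, 0.0646 with every feature tested, 0.0826 with a replicate block and 0.0821 without the 4 arrays farthest out. When the fit held just the compared groups it was 0.120, and under the other alternatives it stayed under 0.05. The call against CDT + DHT had an adjusted p (limma) of 0.112 with just the compared groups and 0.178 without CDT + DHT 1. It was also over 0.05 without some arrays outside the comparison, such as early S 1 (0.0557) and late S 3 (0.0603). Without others, such as late S 1 (0.0337), it stayed under 0.05. With every feature tested it was 0.0627, and with a replicate block 0.0656. Without the 4 arrays highest on the axis the difference from CDT + DHT was -2.65, with an adjusted p of 0.0627, and that from the other arrests was -1.87, with an adjusted p of 0.0417.

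ELOVL5, which elongates polyunsaturated fatty acids, did not pass but had the next largest differences. It measured 6.84, 5.33 and 6.36 on the early G1 arrays, 5.82, 5.33 and 4.69 on those of late G1, 6.15 and 7.58 on the early S pair, 2.45, 6.21 and 5.23 on the late S arrays and 6.41, 7.05 and 6.31 on the G2/M ones. It measured 3.59, 3.39 and 1.95 in CDT + DHT and 3.11, 5.67 and 4.73 in CDT. Apart from late S 1, every arrest array lay above every CDT + DHT array. The G2/M difference from CDT + DHT was 3.61 ± 0.83 (adjusted p 0.0602) and the difference of the arrests from both CDT-medium groups was 2.17 ± 0.50 (adjusted p 0.0526). Its within-group correlation with the axis was -0.96, the same as that of ACACA to 2 decimals, and those 2 genes were the closest pair of members within groups (r 0.95). The 4 arrays highest on the axis were its lowest in their groups: CDT + DHT 3 (1.95), CDT 1 (3.11), late S 1 (2.45) and early G1 2 (5.33).

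SCD, which makes monounsaturated fatty acids, measured 4.48, 4.57 and 3.76 in CDT + DHT, against 4.96, 6.15 and 6.52 in CDT. All 3 CDT + DHT arrays lay below all CDT arrays, and the difference was -1.61 ± 0.58, with an adjusted p of 0.696. In late S it measured 5.85, 7.24 and 6.66, a difference from CDT + DHT of 2.31 ± 0.58 (adjusted p 0.159). FADS1, the second desaturase of polyunsaturated synthesis, averaged 7.40 ± 0.79 in late S, against 5.30 ± 0.32 in CDT + DHT (SD, n = 3 each), with a difference of 2.10 ± 0.59. ELOVL6, which elongates saturated chains, was listed at 0.00 on late S 1 and at 0.01 on CDT + DHT 3, so its group means rest on values near the added 1. The 6 genes' median difference from CDT + DHT was 2.09 (early G1), 1.85 (late G1), 1.38 (early S), 1.88 (late S) and 1.51 (G2/M), with FADS2 the member on the other side of 0 in each. In CDT + DHT against CDT the median was -0.77, with 5 of the 6 below 0.

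**Figure D3:**
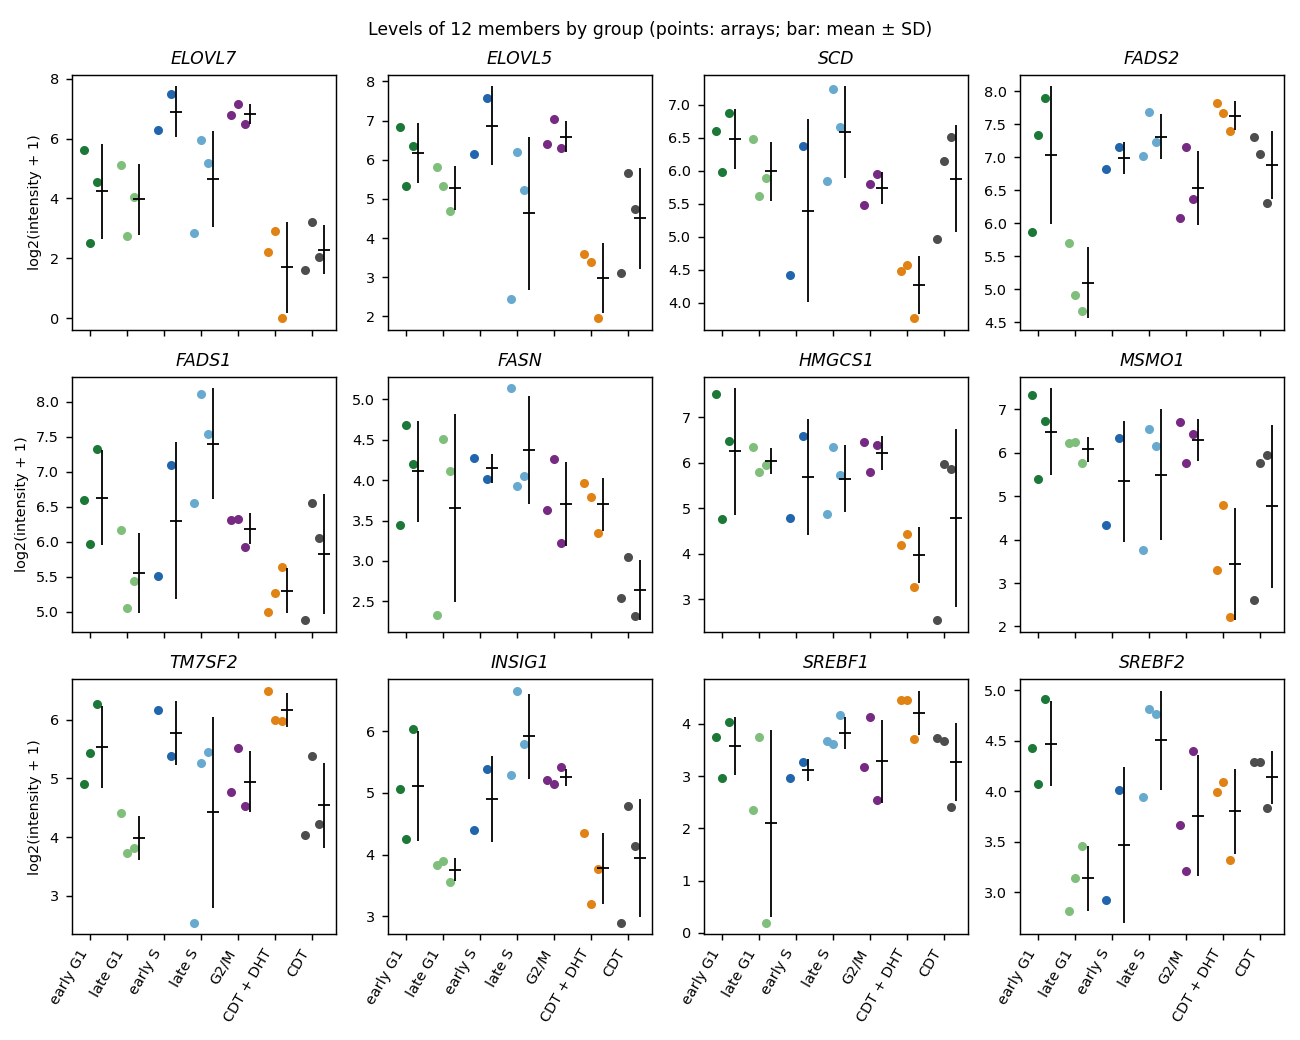
Level of 12 members by group on the log2(intensity + 1) scale, with 1 point per array and a mark beside them for the group mean with its standard deviation. The arrests stand left of CDT + DHT and CDT. ELOVL7 is high in early S and G2/M, and FADS2 is lowest on the 3 late G1 arrays.

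Of the 4 regulators and carriers, limma passed 0 in any comparison. INSIG1, which retains SREBPs in the endoplasmic reticulum, measured 5.05, 4.26 and 6.04 on the early G1 arrays, 3.83, 3.90 and 3.55 on those of late G1, 4.40 and 5.39 on the early S pair, 5.29, 6.65 and 5.80 on the late S arrays and 5.20, 5.14 and 5.41 on the G2/M ones. It measured 4.35, 3.21 and 3.77 in CDT + DHT and 2.90, 4.78 and 4.14 in CDT. Each late G1 array lay below every array of the other arrests, at the level of the CDT-medium arrays. The difference of late G1 from the other arrests was -1.54 ± 0.46, with an adjusted p of 0.160, and that of late S from CDT was 1.97 ± 0.58, with an adjusted p of 0.415. All 4 genes lay below 0 in late G1 against the other arrests, with a median of -1.39, beside a median of -0.43 over all 31 members and -0.09 over all genes. SREBF1, which drives mainly fatty acid genes, differed by -1.36 ± 0.56, SREBF2, which drives mainly sterol genes, by -0.91 ± 0.39, and STARD4, a sterol carrier, by -1.42 ± 0.64. Their arrays overlapped with those of the other arrests. SREBF1 ranged over 2.35, 3.74 and 0.19 in late G1, so its mean there rests on a wide spread.

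Among the 7 genes of the mevalonate and isoprenoid steps, limma passed 0 in any comparison. HMGCS1, which makes HMG-CoA, measured 7.51, 4.76 and 6.48 on the early G1 arrays, 6.36, 5.80 and 5.95 on those of late G1, 4.78 and 6.58 on the early S pair, 4.88, 6.34 and 5.73 on the late S arrays and 6.46, 5.79 and 6.40 on the G2/M ones. It measured 4.18, 4.44 and 3.26 in CDT + DHT and 2.53, 5.98 and 5.87 in CDT. Every arrest array lay above every CDT + DHT array, while the CDT arrays spanned both ranges. The G2/M difference from CDT + DHT was 2.25 ± 0.82, with an adjusted p of 0.212. FDPS, farnesyl diphosphate synthase, averaged 6.94 ± 0.48 in CDT + DHT, against 5.87 ± 0.46 in CDT (SD, n = 3 each), a difference of 1.07 ± 0.51 with an adjusted p of 0.717 and no overlap. IDI1, the isoprenoid isomerase, stood 1.87 ± 0.78 above CDT in early G1 (adjusted p 0.955) and ACAT2, which joins acetyl-CoA units, averaged 6.75 ± 0.08 in early S (SD, n = 2), against 5.72 ± 0.80 in CDT (SD, n = 3). PMVK, phosphomevalonate kinase, measured 7.52, 7.09 and 7.01 in CDT + DHT and 6.63, 6.89 and 6.24 in CDT, with no overlap. MVK and MVD, the mevalonate kinase and decarboxylase, gave adjusted p-values no lower than 0.207 (MVD, G2/M against CDT + DHT, -1.50 ± 0.54).

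Of the 9 measured genes of the sterol ring steps, limma passed 0 in any comparison. MSMO1, a methylsterol oxidase, measured 7.33, 5.38 and 6.73 on the early G1 arrays, 6.23, 6.25 and 5.75 on those of late G1, 4.35 and 6.33 on the early S pair, 3.77, 6.55 and 6.15 on the late S arrays and 6.71, 5.76 and 6.42 on the G2/M ones. It measured 3.30, 4.80 and 2.21 in CDT + DHT and 2.61, 5.76 and 5.95 in CDT. CDT + DHT had the lowest group mean, and late S and early S each had 1 array within its range. The difference from CDT + DHT was 3.04 ± 0.90 in early G1, with an adjusted p of 0.456, and 2.86 ± 0.90 in G2/M, where the adjusted p was 0.155. Over the 7 group means MSMO1 and HMGCS1 correlated at 0.99, and within groups at 0.91, over arrays that share the axis described above.

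EBP, a sterol isomerase, measured 8.61, 8.89 and 8.83 in CDT + DHT, against 7.85, 8.06 and 7.77 in CDT, with a difference of 0.88 ± 0.41 and an adjusted p of 0.717. Its arrays were also all above those of CDT in early G1, early S, late S and G2/M, and late G1 was the exception, with 7.91, 8.19 and 8.13. Its spread was narrow, with a standard deviation of at most 0.56 in any group, and its correlation with the axis was 0.22. TM7SF2, a sterol reductase, averaged 6.16 ± 0.29 in CDT + DHT, with no array below 5.99, against 4.55 ± 0.72 in CDT, with none above 5.38 (SD, n = 3 each), a difference of 1.61 ± 0.66 with an adjusted p of 0.696. In late G1 it measured 4.41, 3.73 and 3.82, below every CDT + DHT array, with a difference of -2.17 ± 0.66 and an adjusted p of 0.147. LSS, lanosterol synthase, had its lowest group mean in early S, at 0.02 and 1.39, below all 3 CDT arrays. DHCR7, the final reductase of the pathway, NSDHL, a sterol dehydrogenase, and SC5D, a sterol desaturase, had differences of 1.02, 1.06 and -0.14 in CDT + DHT against CDT. SQLE, squalene epoxidase, and CYP51A1, lanosterol demethylase, differed by -0.12 and -0.24.

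Of the 5 genes of carbon supply and chain synthesis, limma passed 0 in any comparison. FASN, fatty acid synthase, measured 3.97, 3.79 and 3.34 in CDT + DHT, against 2.54, 3.05 and 2.32 in CDT, with a difference of 1.06 ± 0.57 and an adjusted p of 0.734. It was also above all CDT arrays in early G1, early S, late S and G2/M, by 1.47 ± 0.57, 1.51 ± 0.64, 1.73 ± 0.57 and, in G2/M, with a mean of 3.71 ± 0.52 against 2.64 ± 0.37 (SD, n = 3 each). One late G1 array, at 2.33, lay among the CDT arrays. ACACA, which makes malonyl-CoA, measured 6.93, 7.45 and 6.64 in G2/M, against 4.83, 5.21 and 3.75 in CDT + DHT, with a difference of 2.41 ± 0.79 and an adjusted p of 0.165. Late S 1, at 3.59, was the one arrest array below the CDT + DHT range. ACSS2, which makes acetyl-CoA from acetate, measured 5.12, 4.52 and 4.68 in CDT + DHT, against 4.37, 3.83 and 3.62 in CDT, and 2.97, 3.06 and 3.28 in late G1. ACLY, which makes acetyl-CoA from citrate, and ME1, a source of NADPH, differed by 0.22 ± 0.54 and -0.92 ± 0.82 in CDT + DHT against CDT.

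**Figure D4:**
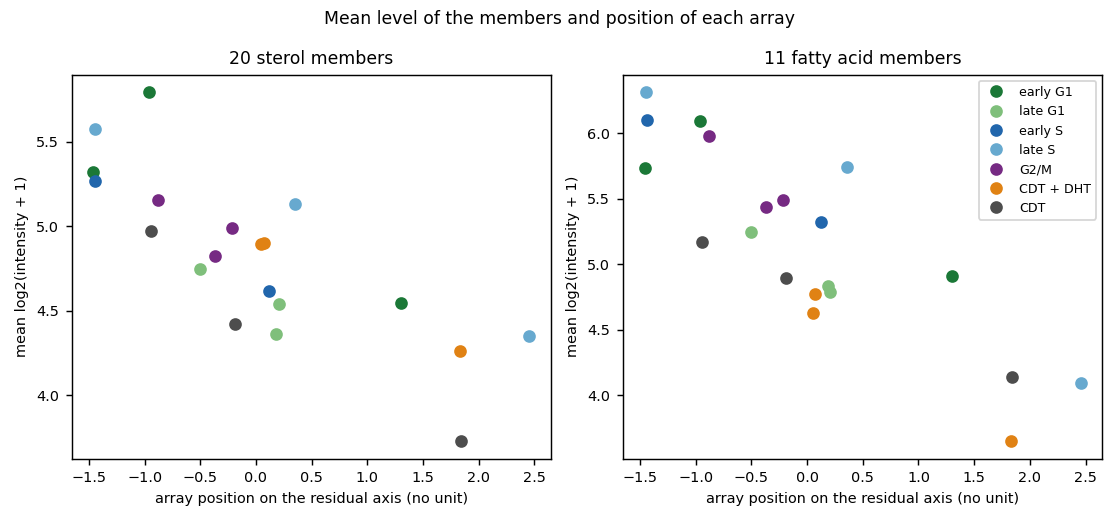
Mean level of the 20 sterol genes (left) and the 11 fatty acid genes (right) on each array, on the log2(intensity + 1) scale, against the array's position on the axis of within-group variance, with 1 point per array coloured by group. Arrays high on the axis have low means in both panels, and late S alone spans 4.35 to 5.58 for the sterol genes. The mean of all genes is not drawn.

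The mean level of the members on an array ranged from 3.88 (CDT 1) to 5.90 (early G1 3). Late S alone spanned 4.26 to 5.84, a spread wider than any difference between group means. Without the 4 arrays highest on the axis, the members' median difference from CDT was 0.79 (early G1), -0.09 (late G1), 0.25 (early S), 0.63 (late S) and 0.25 (G2/M). With all arrays it was 0.82, 0.33, 0.68, 0.55 and 0.61 in the same order, so early G1 and late S kept their size while late G1 crossed 0. The median in CDT + DHT against CDT was -0.12 with all arrays and 0.09 without those 4, beside -0.10 over all genes. In late G1 against the other arrests the median was -0.43 with all arrays and -0.53 without the 4.

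Lists around the pathway were also read. Of 26 genes for SREBP processing, further synthesis and uptake, 22 were measured, and limma passed 0 in any comparison. Among these, LPIN1, a phosphatidate phosphatase, differed by 1.68 ± 0.44 in the arrests against both CDT-medium groups (adjusted p 0.0974). TMEM97, a sterol-responsive membrane protein, differed by 1.97 ± 0.52 in G2/M against CDT + DHT (adjusted p 0.0892), and SCD5, a second stearoyl desaturase, by -3.01 ± 0.81 (adjusted p 0.0964). Of 9 sterol efflux and LXR target genes 8 were measured, and of 12 fatty acid oxidation genes 11, and limma passed 0 of either in any comparison. In the arrests against both CDT-medium groups the medians of these 3 lists were -0.36, -0.19 and -0.23, beside 0.63 for the 31 synthesis genes and -0.06 for all genes. Of their genes 8, 2 and 1 had an unadjusted limma p under 0.05, beside 10 of the 31 synthesis genes and 13.2% of all genes. The part of the axis in these medians was not tested. CDT + DHT and CDT had mean positions on it of 0.65 and 0.24, and the arrests had -0.66 (early S) to 0.45 (late S).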

How the data were processed

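RNA was extracted with Trizol and amplified with the NuGEN Ovation Pico kit, per the labels' protocols. The authors deposited probe set intensities, and the submitters' processing notes name Affymetrix Expression Console 1.1. How probes were summarised and arrays normalized is not given in the sources used here. Intensities were taken as linear from their values, and log2(value + 1) was computed from the deposited intensity. Array medians of 5.44 to 9.08 alone would not tell a linear from a log2 scale. KLK3 reached 10.85 as log2(value + 1), which a deposited value already in log2 would not reach. The file held 33297 features, of which 21214 were listed in the platform annotation, 19460 with 1 symbol and 1754 with several. Of the single-symbol features 19429 matched RefSeq. The brightest cluster per gene was kept (769 genes had several), which left 18417 genes. No 2 arrays were identical.

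Genes were fitted with limma 3.58.1 in R 4.3.3, with 1 coefficient per group over all 20 arrays, and two-sided p-values were adjusted by Benjamini-Hochberg over all genes, with a threshold of 0.05. The fit was also run on simulated data with noise drawn independently for each gene and array. Such data lack the shared axis, so that run cannot tell how the fit behaves under it. The members and lists were chosen with earlier results of these data known, and members were named where they passed, where they were among the 2 largest non-overlapping differences per direction and comparison, or where they belonged to a set list of main enzymes and regulators. ACAT2, MVK, NSDHL, SC5D, CYP51A1 and ME1 are given beside these, chosen after their values were seen, as are LPIN1, TMEM97 and SCD5 among the surrounding genes. Alternatives were quantile normalization, median centring, an added 16, the removal of dim genes, averaging over clusters, every feature, trend and robust eBayes, array weights, a replicate block, only the compared groups, the omission of single arrays and of 4 arrays farthest out, and, added after seeing the data, of the 4 highest on the axis. Same-numbered arrays of different groups had correlated deviations in 17 of 57 pairs (r above 0.1, range -0.68 to 0.66). This cannot tell whether the numbers pair the samples, since the deviations are from means of few arrays and share the axis. The main fit treated the arrays as unpaired.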

Additional observations from a re-analysis of the deposited data

Results flagged for a closer look

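FADS2 in late G1 differed from the mean of the other arrests by -1.87, with an adjusted p of 0.0484 (limma). This call was lost in most omissions of a single array. In 3 cases every array of CDT + DHT lay above every CDT array while every array of an arrest lay below every CDT array. The share of all genes with both was not computed, so whether 3 is unusual cannot be told. Taken singly, 7.81% of all genes lay above CDT in CDT + DHT. Below CDT lay 10.1% in late G1 and 5.18% in late S. FADS2 stood 2.53 higher in CDT + DHT than in late G1, and this difference passed limma, with an adjusted p of 0.0415. That call was lost in several omissions of a single array. ACSS2 stood 1.67 higher in CDT + DHT than in late G1 (adjusted p 0.200) and PMVK stood 1.32 higher in CDT + DHT than in late S (adjusted p 0.400), and neither difference passed. All values are on the log2(intensity + 1) scale.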

How the results depend on the processing

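The members' median differences moved by less than 0.53 under every alternative. This bound is the pooled within-group standard deviation of the members' mean level on an array. It is wide, since the medians from CDT themselves lay between 0.33 and 0.82 in the arrests. Late G1 against CDT crossed 0 within it when the 4 arrays highest on the axis were left out. The numbers of members that passed limma moved as follows, and shares of all genes passing under the same setting are in parentheses. With an added 16 there were 2 in early S (0.125%) and 2 in G2/M (0.206%) against CDT, 2 in late G1 (2.41%), 1 in early S (0.0814%) and 2 in G2/M (1.76%) against CDT + DHT, 2 in late G1 against the other arrests (0.890%), 2 in the arrests against both CDT-medium groups (1.67%) and 2 by the F test (0.635%). With trend and robust eBayes there were 1 in early S (0.0652%) and 2 in G2/M (0.282%) against CDT, 1 for early S (0.0543%), 1 for late S (0.288%) and 2 for G2/M (1.89%) against CDT + DHT, 2 in late G1 against the other arrests (1.05%), 2 in the arrests against CDT medium (1.38%) and 1 by the F test (0.652%). With array weights there were 1 in G2/M against CDT (0.315%), 4 for late G1 (5.86%), 1 for early S (0.0814%), 8 for late S (9.64%) and 7 for G2/M (9.06%) against CDT + DHT, 1 in late S against the other arrests (4.72%) and 2 in the arrests against CDT medium (1.83%). Quantile normalization, median centring and the filter on dim genes each gave 1 in G2/M against CDT (0.114%, 0.163% and 0.326% in that order), 2 in G2/M against CDT + DHT (0.570%, 0.662% and 2.42%) and 2 in the arrests against CDT medium (0.896%, 0.842% and 1.65%), and quantile normalization gave 0 in late G1 against the other arrests (0.852%). With every feature tested there were 0 in late G1 against CDT + DHT (0.180%) and 0 against the other arrests (0.417%). With only the compared groups there were 1 in G2/M against CDT (0.0597%), 0 in late G1 (0%) and 2 in G2/M (2.19%) against CDT + DHT, and 0 for late G1 against the other arrests (0.440%). Without the 4 arrays farthest out (late S 1, late S 2, early G1 2 and CDT 1) 4 passed for early G1 (0.440%), 2 for late G1 (1.84%), 2 for early S (0.152%) and 5 for G2/M (4.01%) against CDT + DHT, 0 in late G1 against the other arrests (1.06%) and 2 in the arrests against CDT medium (0.299%). Without the 4 arrays highest on the axis there were 0 in late G1 (0.331%) and 2 in G2/M (0.668%) against CDT + DHT and 3 for late G1 against the other arrests (2.20%). Leaving out single arrays gave 0 to 1 in G2/M against CDT, 0 to 2 in G2/M and 0 to 2 in late G1 against CDT + DHT, 0 to 1 in late G1 against the other arrests and 1 to 2 in the arrests against CDT medium. In these omissions FADS2 passed in late G1 against the other arrests just without late S 1 and without early G1 1. The replicate block, which treats same-numbered arrays as matched, gave 0 in late G1 (0.250%) and 0 in G2/M (0.0109%) against CDT + DHT and 0 for late G1 against the other arrests (0.483%). Whether these arrays were matched is not known. The cause of these moves was not tested. No named difference changed sign. The number of arrays limits the precision, and low levels are close to the added 1.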
